A study of Mus musculus with 8 samples.

Results

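Interferon response genes were followed in mouse MLL-AF9 leukemic cells treated with EPZ4777, an inhibitor of the histone H3 methyltransferase DOT1L. The members were 48 genes listed by symbol: interferon receptors, the transcription factors that act below them, and genes that interferons are known to induce. Of these, 46 had a row among the 18193 genes of the array, each read from the probe set with a single gene symbol and the highest mean. Isg15, whose probe set carries several symbols, and Ifi44, which is not listed, were not analysed here.

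The study put total RNA of 8 samples on 1 Affymetrix array each. All were murine leukemic cells carrying MLL-AF9, a leukemia fusion joining the methyltransferase MLL to AF9, and all grew in culture with SCF, IL-3 and IL-6. The 4 groups of 2 arrays were cells with a hairpin against luciferase (shLUC), which has no mouse target, in DMSO or after 6 days in 3 µM EPZ4777, and cells labelled with a hairpin against Sirt1 (shSirt1) in DMSO or after 21 days in 3 µM EPZ4777. Sirt1 encodes an NAD-dependent deacetylase. The codes A4 and D11 belonged to shLUC and A1 and A5 to shSirt1, each code had 1 array in DMSO and 1 in EPZ4777, and the meaning of the codes is one of the things not given in the sources used here. For the DMSO arrays no time is labelled, so time in culture cannot be told apart from EPZ4777 within a hairpin, nor from the hairpin between the EPZ4777 groups. Nothing in the labels says whether a group's arrays stem from separate cultures, so p-values measure the spread between these samples alone, and that spread may be technical.

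Sirt1 itself checks the hairpin label. Without EPZ4777, shLUC cells read 9.46 for A4 and 9.58 for D11 in log2 intensity, and with it 9.44 and 9.83. Cells labelled shSirt1 read 8.70 for A1 and 9.54 for A5 in DMSO, and 8.85 and 9.73 in EPZ4777. Only A1 lay below the shLUC arrays and A5 lay among them, so the cells are called labelled shSirt1. By mean log2 intensity, the T and NK cell and B cell marker lists held 0 of 6 and 0 of 5 measured genes above 6.13, the median level over all genes. The leukemic progenitor list held 8 of 10 above it, with Cd34 and Meis1 below, and its summed intensity ranged from 21400 to 24150. The array of A1 in DMSO stood apart: the summed intensity of 12 stroma markers was 1066 there and 342.1 to 533.4 on the other 7 arrays. For several genes the results in cells labelled shSirt1 are therefore also given without it.

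Interferons are secreted proteins that cells release on sensing foreign or misplaced nucleic acid. Type I interferons bind the receptor chains IFNAR1 and IFNAR2, and interferon gamma binds IFNGR1 and IFNGR2. Janus kinases on the receptors then activate STAT proteins. With IRF9, STAT2 takes part in a complex that binds the interferon-stimulated response element (ISRE) in the promoters of target genes, and the factors activated by interferon gamma bind the gamma-activated site (GAS). The induced genes encode nucleic acid sensors, antiviral enzymes and membrane proteins, GTPases that attack pathogens inside cells, and the machinery that presents peptides on MHC class I. In blood-forming cells many of them are also expressed at a basal level or change with myeloid maturation.

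The promoters show what the members share in sequence. A RefSeq table (build GRCm38.p6) held the bases from 250 before to 50 after the start of 37 of the 46 genes. The ISRE core, written as GAAA, any 2 bases and GAAA and searched on both strands, was present in 18 of these 37 (48.6%), against 3.63% of the 14452 array genes with a window. The GAS TTCNNNGAA, whose pattern reads the same on both strands, was present in 12 of 37 (32.4%), against 8.57%. Matches of both motifs can overlap, as they do in Bst2 and Ifitm3. A match is a description of the letters and not a bound site. The stretches of 60 bases shown here belong to members whose levels are described further on, with the matches in capitals, each 5′ to 3′ on the strand of the gene. B2m lies at chr2:122147522-122147581 (plus strand), Cxcl10 at chr5:92349070-92349129 (minus), Oas3 at chr5:120777700-120777759 (minus), Gbp3 at chr3:142559974-142560033 (plus), Igtp at chr11:58199486-58199545 (plus) and Psmb8 at chr17:34198075-34198134 (plus).
B2m: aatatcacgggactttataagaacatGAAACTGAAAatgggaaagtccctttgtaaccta
Cxcl10: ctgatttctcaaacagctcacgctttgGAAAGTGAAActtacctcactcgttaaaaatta
Oas3: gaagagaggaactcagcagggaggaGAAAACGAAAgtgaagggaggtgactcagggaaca
Gbp3: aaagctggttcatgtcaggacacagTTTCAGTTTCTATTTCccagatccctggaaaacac
Igtp: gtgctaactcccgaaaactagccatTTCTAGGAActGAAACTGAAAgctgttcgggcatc
Psmb8: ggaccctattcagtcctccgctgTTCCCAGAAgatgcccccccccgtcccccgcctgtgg
The B2m, Cxcl10 and Oas3 stretches hold an ISRE core on the gene's strand, and Gbp3 holds 2 overlapping cores on the opposite strand. Igtp holds a GAS followed by an ISRE core, and Psmb8 a GAS alone.

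Medians of genes with an ISRE core in the window and of genes without one lay close together. The 9 members without a window, which include Rtp4 and Oas2, entered neither set. The median log2 difference of EPZ4777 against DMSO was 0.18 over the 18 genes with a core and 0.13 over the 19 without in shLUC cells, and -0.14 and -0.16 in cells labelled shSirt1. Between the hairpins the medians were -0.15 and -0.18 in DMSO and -0.33 and -0.35 in EPZ4777. The printed genes go both ways: with EPZ4777 in shLUC cells, B2m rose by 0.84 ± 0.16 (log2 difference ± SE throughout) while Gbp3, which has 2 cores, stood at -1.18 ± 0.63 and did not pass.

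Genes were tested with limma over the whole table, with an adjusted p (Benjamini-Hochberg) under 0.05 as the threshold for passing. In shLUC cells after 6 days in EPZ4777, 4 of the 46 genes rose (Rtp4, Ddx58, Oas2 and B2m) and 0 fell. Over all genes 1.62% rose and 2.36% fell, 3.98% in all, or 295 and 429 genes. That balance depended on the scaling, with 336 higher and 264 lower after quantile normalization. In cells labelled shSirt1 after 21 days, 1 gene fell (Ifi209) and 0 rose, against 0.181% and 0.214% of all genes, 0.396% in all. Differences between the EPZ4777 effects of the arms passed for 0 of 46 genes, and limma gave 7 at an unadjusted p under 0.05, all lower in cells labelled shSirt1 (15.2%, against 3.22% of all genes) and 0 higher (against 3.49%). Over all genes 0% passed in that comparison too. The median log2 difference of the 46 genes was 0.15 in shLUC cells, where that of all genes was -0.0025. It was -0.16 in cells labelled shSirt1, where that of all genes was 0.0109.

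At an unadjusted p under 0.05, 13 genes were higher and 4 lower with EPZ4777 in shLUC cells (28.3% and 8.7%, against 9.49% and 12.2% of all genes). The other arm had 5 higher and 9 lower (10.9% and 19.6%, against 7.83% and 7.98%). Positive differences made up 31 of 46 in shLUC cells (67.4%, against 49.6% of all genes) and 18 in cells labelled shSirt1 (39.1%, against 51.9%). The difference of the effects was positive for 10 genes (21.7%, against 54.4%).

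Group overlaps and single codes were counted next. In shLUC cells both EPZ4777 arrays lay above both DMSO arrays for 21 genes (45.7%, against 24.2% of all genes) and below them for 9 (19.6%, against 28.2%). For cells labelled shSirt1 the counts were 14 higher (30.4%, against 26% of all genes) and 16 lower (34.8%, against 23%). Within codes, 12 genes were higher with EPZ4777 in all 4 (26.1%, against 18.7%) and 8 were lower in all 4 (17.4%, against 19.6%). Another 7 were higher in A4 and D11 and lower in A1 and A5 (15.2%, against 5.3% of all genes), and 0 went the opposite way (against 5.9%). The D11 array in EPZ4777 was the highest of the 8 for 22 of the 46 genes (47.8%, against 15.9% of all genes) and the lowest for 0 (against 22.4%). The A5 array in EPZ4777 was the lowest for 14 (30.4%, against 12.2%).

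**Figure D1:**
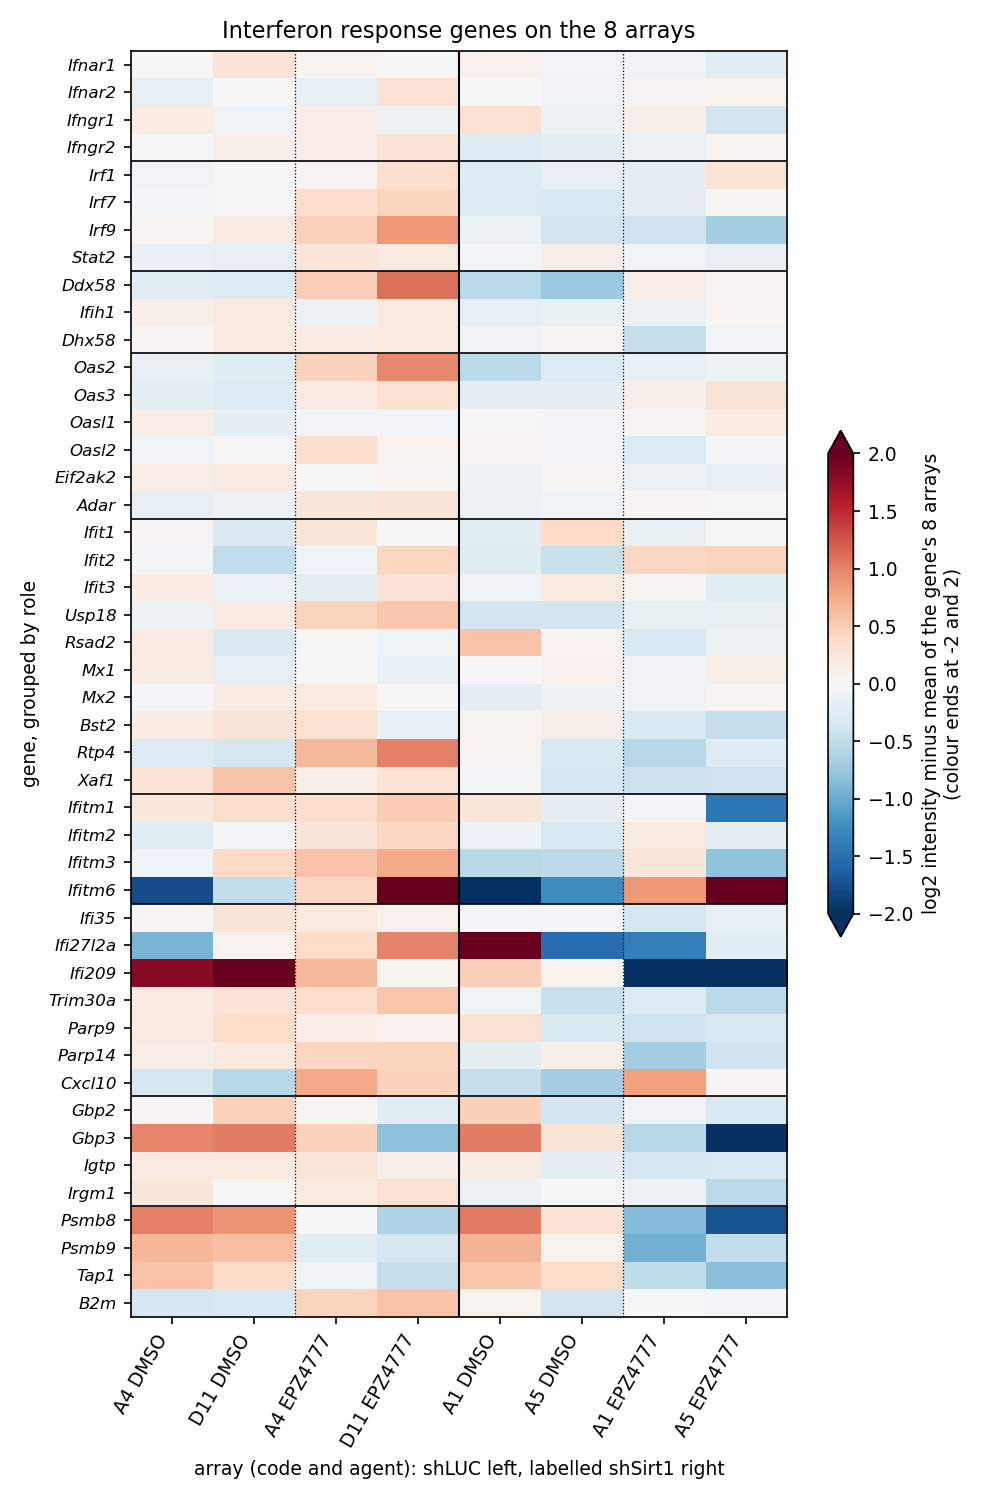
Log2 intensity of each of the 46 interferon response genes on each of the 8 arrays, minus that gene's mean over the 8 arrays, with genes in rows grouped by role and arrays in columns by code and agent. Red cells crowd the D11 column in EPZ4777, the highest array for 22 genes, while Ifi209, Gbp3, Psmb8, Psmb9 and Tap1 are bluest in the columns of cells labelled shSirt1 in EPZ4777.

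The 4 receptor chains kept to narrow ranges across the arrays. Ifnar2, a chain of the type I receptor, read 10.26 (A4) and 10.44 (D11) in shLUC cells in DMSO, 10.27 and 10.70 in EPZ4777, 10.42 (A1) and 10.36 (A5) in cells labelled shSirt1 in DMSO, and 10.48 and 10.50 in EPZ4777. All values from here on are log2 intensities in that order of arrays unless a difference is named. Ifngr1, the ligand-binding chain of the interferon gamma receptor, had the widest range of the group, with 10.94 and 10.70, then 10.91 and 10.68, then 11.09 and 10.69, then 10.89 and 10.40. The EPZ4777 and DMSO groups overlapped in both arms for Ifngr1, and in shLUC cells for Ifnar2. None of the 4 chains passed in any comparison, where 0 had an unadjusted p under 0.05. Their EPZ4777 differences in shLUC cells ran from -0.12 to 0.16, and the 95% intervals lay within -0.52 and 0.50 for all 4. In cells labelled shSirt1 the differences ran from -0.24 to 0.19, with intervals within -0.74 and 0.47.

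The interferons themselves were measured through 5 of 8 listed genes, and 0 of 5 passed in any comparison, with 0 at an unadjusted p under 0.05. Ifnb1, which encodes interferon beta, lay between 3.74 and 4.49 on the 8 arrays, and Ifng, which encodes interferon gamma, between 2.51 and 2.66. Both lay below the median level of all genes on every array. Both were named after their values were seen.

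Among the transcription factors 0 of 4 passed, and Irf9 and Stat2 had opposite signs in the 2 arms. Irf9, the DNA-binding partner of STAT2 in the ISRE-binding complex, read 6.58 and 6.70 in shLUC cells in DMSO, 6.99 and 7.39 in EPZ4777, 6.43 and 6.16 in cells labelled shSirt1 in DMSO, and 6.12 and 5.86 in EPZ4777. Both EPZ4777 arrays were above DMSO in shLUC cells and below it in the other arm, and no groups overlapped. The EPZ4777 difference was 0.55 ± 0.18 (adjusted p = 0.124) in shLUC cells and -0.31 ± 0.18 (adjusted p = 0.436) in cells labelled shSirt1. In EPZ4777, cells labelled shSirt1 stood at -1.20 ± 0.18 against shLUC (adjusted p = 0.0575).

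Stat2, which had the smallest range of the factors, read 4.79 and 4.75, then 5.15 and 5.09, then 4.88 and 5.05, then 4.86 and 4.76. The shLUC arrays in EPZ4777 were the highest, with a difference of 0.35 ± 0.11 (adjusted p = 0.113), against -0.16 ± 0.11 in the other arm. A dimmer probe set of Stat2 had the opposite sign in shLUC cells, -0.17. Irf1 and Irf7, factors induced by interferons, differed by 0.23 and 0.42 with EPZ4777 in shLUC cells and by 0.24 and 0.21 in cells labelled shSirt1, and did not pass. By the probe sets used, all 4 factors had positive differences in shLUC cells, against 49.6% of all genes. In cells labelled shSirt1 2 of 4 did, against 51.9% of all genes.

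Among the RNA sensors the data separate Ddx58 from its relatives. Ddx58 encodes RIG-I, which detects double-stranded RNA with triphosphate ends. It read 6.37 and 6.33 in shLUC cells in DMSO, 7.07 and 7.69 in EPZ4777, 6.04 and 5.84 in cells labelled shSirt1 in DMSO, and 6.71 and 6.62 in EPZ4777. All 4 codes were higher with EPZ4777, by 0.67 to 1.36. In shLUC cells Ddx58 rose 2.05-fold, a log2 difference of 1.03 ± 0.20 (adjusted p = 0.0428), and in cells labelled shSirt1 the difference was 0.72 ± 0.20 (adjusted p = 0.185). The effects differed by -0.31 ± 0.28, with a 95% interval from -0.97 to 0.35. Of its 3 probe sets all had positive differences in shLUC cells and 2 passed.

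Ifih1, which encodes the related sensor MDA5, had the smallest range of the sensors. It read 9.15 and 9.21, then 8.94 and 9.22, then 8.87 and 8.91, then 8.92 and 9.08. The groups overlapped with EPZ4777 in shLUC cells, and the differences were -0.10 ± 0.13 and 0.11 ± 0.13 in the 2 arms. Dhx58, which encodes LGP2, a regulator of both sensors, differed by 0.06 and -0.25, and did not pass.

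The enzymes that act on double-stranded RNA were led by Oas2, an oligoadenylate synthetase that activates RNase L. Oas2 read 5.68 and 5.57 in shLUC cells in DMSO, 6.28 and 6.79 in EPZ4777, 5.30 and 5.55 in cells labelled shSirt1 in DMSO, and 5.69 and 5.72 in EPZ4777. The shLUC arrays in EPZ4777 were above the other 6. Oas2 rose 1.88-fold in shLUC cells, a log2 difference of 0.91 ± 0.18 (adjusted p = 0.0451). In cells labelled shSirt1 the difference was 0.28 ± 0.18 (adjusted p = 0.481), and the difference of the effects, -0.63 ± 0.25, did not pass (adjusted p = 0.729).

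Oasl1, a relative of the synthetases, had the smallest range of the enzymes, with 5.49 and 5.18, then 5.31 and 5.31, then 5.36 and 5.33, then 5.42 and 5.50. Its groups overlapped in shLUC cells, and its differences were -0.03 ± 0.13 and 0.12 ± 0.13. Oas3, another synthetase, differed by 0.47 ± 0.11 (adjusted p = 0.0636) and 0.36 ± 0.11 (adjusted p = 0.213) and was higher in all 4 codes. Adar, which edits adenosine to inosine in double-stranded RNA, differed by 0.38 ± 0.09 (adjusted p = 0.0699) and 0.11 ± 0.09 (adjusted p = 0.606). The next brightest probe set of Adar had the opposite sign in shLUC cells, -0.14. Eif2ak2, which encodes the kinase PKR, differed by -0.13 and -0.09, and Oasl2 by 0.23 and -0.15. On every array Oasl2 lay below the lower quartiles of the arrays (3.75 to 3.84) and may be at background. Of the 6 enzymes 1 rose in shLUC cells and 5 did not pass, where 1.62% of all genes rose. Their median there was 0.31. In cells labelled shSirt1 their median was 0.11 and 0 of 6 passed in limma.

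**Figure D2:**
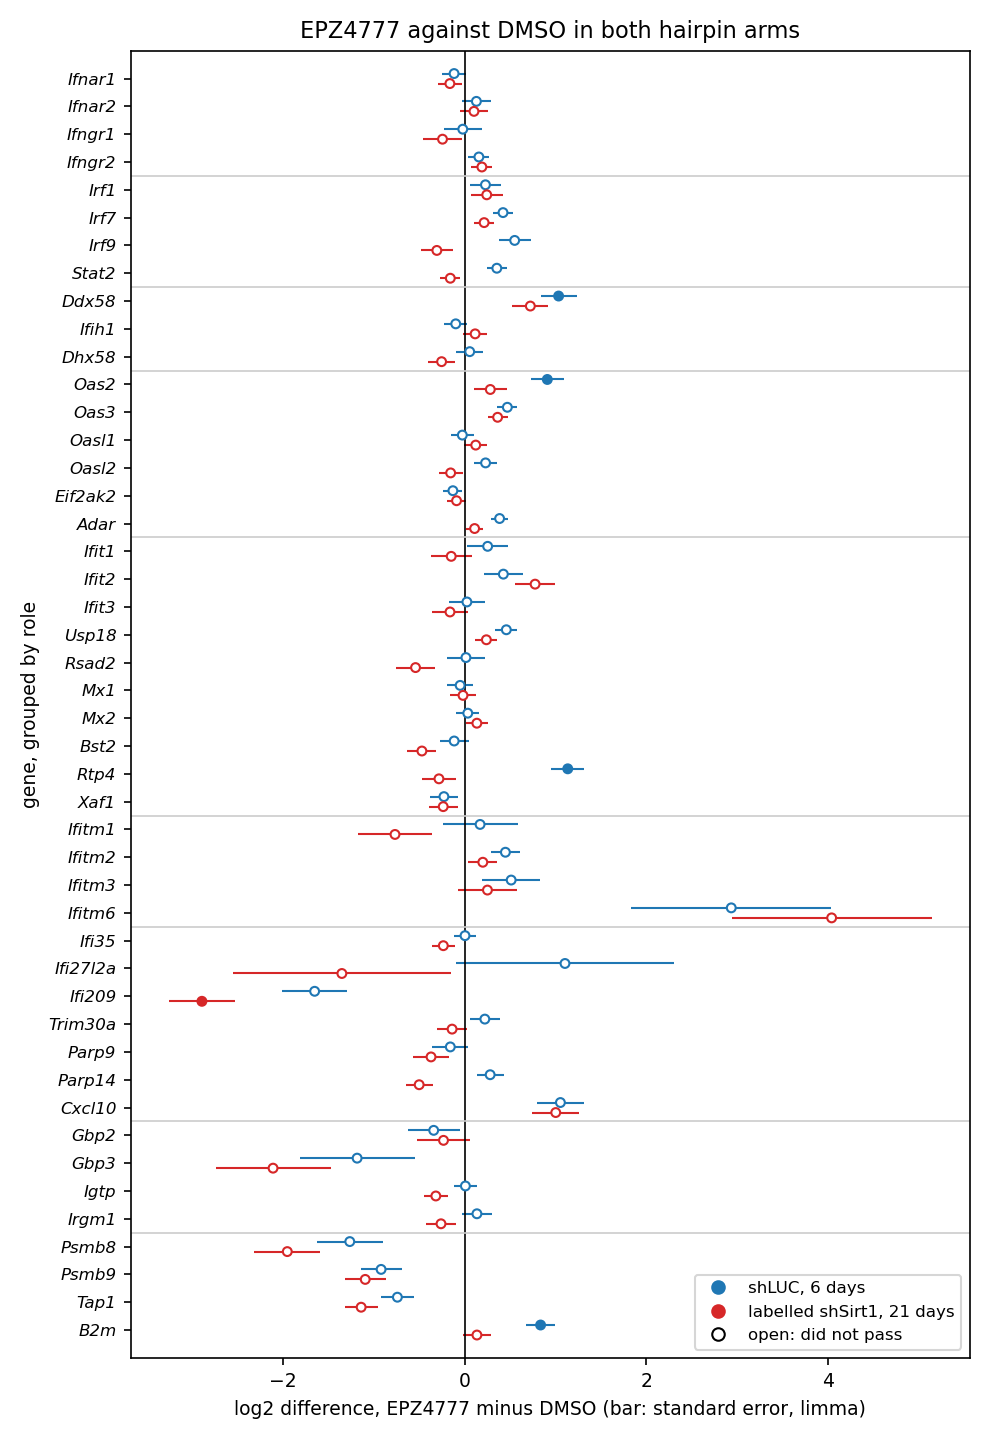
Log2 difference of EPZ4777 minus DMSO for each of the 46 genes, grouped by role, in shLUC cells at 6 days (blue) and cells labelled shSirt1 at 21 days (red), with bars for the limma standard error and filled points for genes that passed. Rtp4, Ddx58, Oas2 and B2m are filled in blue on the right, and Ifi209 is filled in red on the left.

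Of the 10 measured antiviral effectors 1 rose in shLUC cells and 9 did not pass, where 1.62% of all genes rose. Rtp4, a chaperone of membrane receptors that restrains viral replication, read 3.96 and 3.86 in shLUC cells in DMSO, 4.86 and 5.22 in EPZ4777, 4.27 and 3.91 in cells labelled shSirt1 in DMSO, and 3.66 and 3.96 in EPZ4777. Both shLUC arrays in EPZ4777 were above the other 6, and the groups of the other arm overlapped. Rtp4 rose 2.19-fold in shLUC cells, a log2 difference of 1.13 ± 0.18 (adjusted p = 0.0346), against -0.28 ± 0.18 (adjusted p = 0.488) in cells labelled shSirt1. The difference of the effects was -1.42 ± 0.26 with a 95% interval from -2.03 to -0.80, and did not pass over all genes (adjusted p = 0.456). A second, dimmer probe set differed by 0.08 in shLUC cells. The Rtp4 readings in shLUC cells in DMSO lay just above the lower quartiles of the arrays (3.75 to 3.84). They may be near background, so the size of the rise is uncertain.

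The effectors best known as interferon targets were among those that did not pass. Mx1, a GTPase that blocks influenza virus, read 3.28 and 2.97, then 3.14 and 3.01, then 3.15 and 3.22, then 3.07 and 3.26, with overlapping groups and differences of -0.05 ± 0.14 and -0.02 ± 0.14. On every array Mx1 lay below the lower quartiles of the arrays (3.75 to 3.84). It may be at background, where a change can be missed. Mx2 differed by 0.03 and 0.13. Ifit1 and Ifit3, which encode proteins that bind viral RNA, differed by 0.25 and 0.02 in shLUC cells and by -0.15 and -0.16 in cells labelled shSirt1. Without A1 in DMSO the latter were -0.46 and -0.28. The mean of Ifit1 over the arrays, 3.56, was also below those lower quartiles. Ifit2, their neighbour on chromosome 19, differed by 0.43 ± 0.22 (adjusted p = 0.32) and 0.77 ± 0.22 (adjusted p = 0.19). Usp18, the protease that removes ISG15 from proteins, differed by 0.46 ± 0.12 (adjusted p = 0.079) and 0.24 ± 0.12 (adjusted p = 0.384). A1 and A5 in DMSO both read 3.49 for Usp18, below the lower quartiles, so its SE may be too small in every comparison. Bst2, which tethers budding virus, and Xaf1, a regulator of apoptosis, differed by -0.12 and -0.23 in shLUC cells and by -0.47 and -0.24 in cells labelled shSirt1, and did not pass.

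Rsad2, which encodes viperin, was highest on the A1 array in DMSO. It read 5.79 and 5.35, then 5.63 and 5.54, then 6.20 and 5.71, then 5.30 and 5.52. Its differences were 0.01 ± 0.21 in shLUC cells and -0.54 ± 0.21 (adjusted p = 0.287) in cells labelled shSirt1, and without A1 in DMSO the latter was -0.29 ± 0.21. A dimmer probe set of Rsad2 had the opposite sign in cells labelled shSirt1, 0.35, and another had the same sign, -0.45.

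The IFITM genes, which lie side by side on chromosome 7 and encode membrane proteins that hinder virus entry, include the widest range of the 46 genes. Ifitm6 read 7.05 and 8.34 in shLUC cells in DMSO, 9.24 and 12.01 in EPZ4777, 5.38 and 7.58 in cells labelled shSirt1 in DMSO, and 9.69 and 11.34 in EPZ4777. Every EPZ4777 array lay above every DMSO array, and the codes differed from DMSO by 2.19, 3.68, 4.31 and 3.76 (A4, D11, A1 and A5). The differences were 2.93 ± 1.10 (adjusted p = 0.18) and 4.04 ± 1.10 (adjusted p = 0.184), and neither passed. Without A1 in DMSO the latter was 2.94 ± 1.20 (adjusted p = 0.413). The spread within groups was wide, with an SD of 1.96 (n = 2) in shLUC cells in EPZ4777. Summed neutrophil marker intensity moved alongside, from 11370 to 34830 over the DMSO arrays to 59660 to 102400 over the EPZ4777 arrays. Its part in the result was not tested, and in bulk RNA more cells of a type and more RNA per cell cannot be told apart.

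The other IFITM genes had smaller differences than Ifitm6. Ifitm2, with the smallest range of the family, read 10.70 and 10.87, then 11.16 and 11.31, then 10.79 and 10.60, then 11.08 and 10.71. The shLUC groups did not overlap and the others did, with differences of 0.45 ± 0.16 (adjusted p = 0.158) and 0.20 ± 0.16 (adjusted p = 0.571). Ifitm3 read 11.65 and 12.13, then 12.31 and 12.50, then 11.19 and 11.21, then 11.96 and 10.93. A1 and A5 went opposite ways in Ifitm3, and the differences of 0.51 ± 0.32 and 0.25 ± 0.32 did not pass. Ifitm1 differed by 0.17 ± 0.41 and -0.77 ± 0.41, and its level was 11.75 in A5 in EPZ4777 and 13.02 to 13.71 on the other arrays.

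Ifi209 was the member that fell. It belongs to the family of interferon-inducible proteins with a pyrin domain that bind DNA. It read 7.75 and 8.11 in shLUC cells in DMSO, 6.58 and 5.98 in EPZ4777, 6.41 and 5.99 in cells labelled shSirt1 in DMSO, and 3.82 and 2.80 in EPZ4777. The arrays of cells labelled shSirt1 in EPZ4777 were the lowest, the shLUC arrays in DMSO the highest, and the remaining 4 lay between. Of those lowest readings, A5 (2.80) was below the lower quartiles of the arrays (3.75 to 3.84) and A1 (3.82) within their range. Both may be at background, so the size of any difference that uses them is uncertain. With EPZ4777 Ifi209 fell in cells labelled shSirt1 to 0.135 of the DMSO level, a log2 difference of -2.89 ± 0.36 (adjusted p = 0.0399). In shLUC cells the difference was -1.65 ± 0.36 (adjusted p = 0.0552). Without A1 in DMSO the former was -2.68 ± 0.45 and no longer passed (adjusted p = 0.145). A slightly dimmer probe set of Ifi209 differed by -1.26 in the shLUC arm and by -1.43 in the other, and passed in neither.

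Cxcl10, the chemokine that draws T cells through CXCR3, was higher with EPZ4777 in every code and was singled out after its values were seen. It read 4.62 and 4.38, then 5.71 and 5.41, then 4.49 and 4.26, then 5.77 and 4.98. No EPZ4777 array overlapped a DMSO array. The differences were 1.05 ± 0.26 (adjusted p = 0.07) and 1.0 ± 0.26 (adjusted p = 0.167), and they differed from each other by -0.05, with a 95% interval from -0.92 to 0.82.

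Ifi27l2a, which encodes a small hydrophobic protein induced by type I interferon, depended on the A1 array in DMSO. It read 5.59 and 6.59, then 6.88 and 7.50, then 9.14 and 4.98, then 5.13 and 6.29. A1 in DMSO was the highest array and A5 in DMSO the lowest. With EPZ4777 A4, D11 and A5 were higher by 1.30, 0.91 and 1.31, and A1 differed by -4.01. The difference in cells labelled shSirt1 was -1.35 ± 1.20 with A1 in DMSO and 0.73 ± 0.58 without it, and neither passed.

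Parp14, an ADP-ribosyltransferase, read 6.78 and 6.87, then 7.09 and 7.12, then 6.48 and 6.77, then 5.97 and 6.28. It was higher with EPZ4777 in both shLUC codes and lower in both others, with differences of 0.28 ± 0.15 (adjusted p = 0.344) and -0.50 ± 0.15 (adjusted p = 0.206). Ifi35, which had the smallest range among these genes, read 10.24 and 10.46, then 10.41 and 10.30, then 10.19 and 10.18, then 9.86 and 10.05, with differences of 0.00 ± 0.12 and -0.24 ± 0.12. Trim30a, a regulator of inflammatory signalling, differed by 0.22 and -0.14 (0.04 ± 0.18 in place of the latter without A1 in DMSO). Parp9, a partner of the ubiquitin ligase DTX3L, differed by -0.16 and -0.37 (-0.07 in place of the latter without A1 in DMSO). None of these 4 passed in any comparison.

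**Figure D3:**
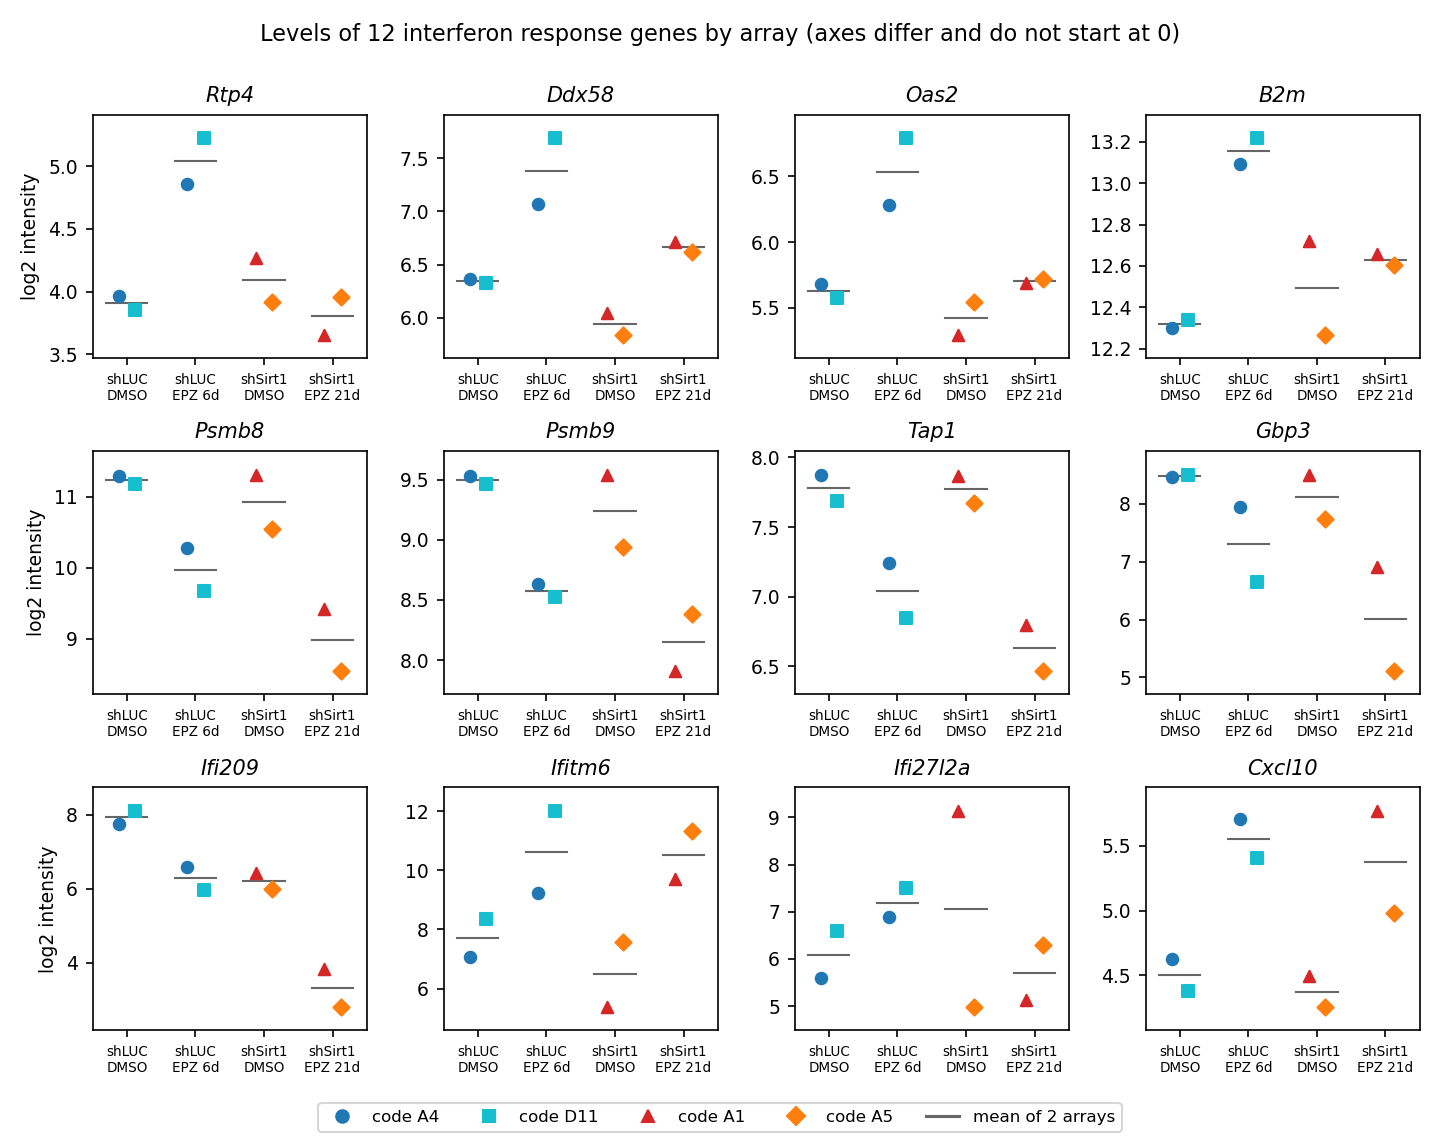
Log2 intensity of 12 of the genes on the 8 arrays, with 1 panel per gene, the 4 groups on the horizontal axis, 1 symbol per code and a grey line at the mean of 2 arrays; axes differ between panels. Psmb8, Tap1, Gbp3 and Ifi209 step down with EPZ4777 in both arms, Rtp4 and B2m step up in shLUC cells, and A1 in DMSO stands at 9.14 for Ifi27l2a.

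The interferon-inducible GTPases attack the membranes around pathogens. Gbp3 read 8.46 and 8.50 in shLUC cells in DMSO, 7.95 and 6.65 in EPZ4777, 8.51 and 7.74 in cells labelled shSirt1 in DMSO, and 6.91 and 5.12 in EPZ4777. Each code was lower with EPZ4777, from -0.52 in A4 to -2.62 in A5, and the differences of -1.18 ± 0.63 (adjusted p = 0.346) and -2.11 ± 0.63 (adjusted p = 0.209) did not pass. The latter was -1.72 ± 0.77 without A1 in DMSO. Igtp, with the smallest range of the group, read 8.12 and 8.13, then 8.19 and 8.07, then 8.09 and 7.77, then 7.59 and 7.63. It was flat in shLUC cells, at 0.01 ± 0.13, and stood at -0.32 ± 0.13 (adjusted p = 0.305) in cells labelled shSirt1.

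Gbp2 lies near Gbp3 on chromosome 3. It read 4.17 and 4.60, then 4.16 and 3.92, then 4.62 and 3.76, then 4.07 and 3.84, with overlapping groups in cells labelled shSirt1 and differences of -0.34 ± 0.29 and -0.23 ± 0.29. Without A1 in DMSO the latter changed sign, to 0.20 ± 0.23. Irgm1, a GTPase that guides autophagy, differed by 0.13 and -0.26.

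The antigen processing genes split between B2m and the genes at the MHC. B2m encodes the light chain of MHC class I. It read 12.30 and 12.34 in shLUC cells in DMSO, 13.09 and 13.22 in EPZ4777, 12.72 and 12.27 in cells labelled shSirt1 in DMSO, and 12.66 and 12.60 in EPZ4777. The shLUC arrays in EPZ4777 were the highest, and the groups of the other arm overlapped. B2m rose 1.78-fold in shLUC cells, a log2 difference of 0.84 ± 0.16 (adjusted p = 0.0411), which its second probe set repeated (0.84). In cells labelled shSirt1 the difference was 0.13 ± 0.16 (adjusted p = 0.711), or 0.36 ± 0.14 (adjusted p = 0.382) without A1 in DMSO.

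Psmb9, Tap1 and Psmb8 are adjacent protein-coding genes of the MHC on chromosome 17. Psmb8 and Psmb9 encode catalytic subunits of the immunoproteasome, which cuts proteins into peptides for class I, and Tap1 a chain of the transporter that carries those peptides into the endoplasmic reticulum. Psmb8 read 11.29 and 11.18 in shLUC cells in DMSO, 10.27 and 9.67 in EPZ4777, 11.31 and 10.55 in cells labelled shSirt1 in DMSO, and 9.41 and 8.55 in EPZ4777. The DMSO arrays were all above the EPZ4777 arrays, and within codes EPZ4777 differed from DMSO by -1.02 (A4), -1.51 (D11), -1.90 (A1) and -2.0 (A5). The differences were -1.26 ± 0.36 (adjusted p = 0.0964) and -1.95 ± 0.36 (adjusted p = 0.0865), with -1.57 ± 0.39 for the latter without A1 in DMSO.

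Psmb9 and Tap1 were singled out after their values were seen. Psmb9 read 9.53 and 9.47, then 8.63 and 8.52, then 9.54 and 8.94, then 7.91 and 8.38. Tap1 read 7.88 and 7.69, then 7.24 and 6.84, then 7.87 and 7.67, then 6.79 and 6.47. As in Psmb8, every DMSO array was above every EPZ4777 array. The differences of Psmb9 were -0.92 ± 0.23 (adjusted p = 0.0699) and -1.09 ± 0.23 (adjusted p = 0.108), and those of Tap1 -0.74 ± 0.18 (adjusted p = 0.0684) and -1.14 ± 0.18 (adjusted p = 0.0679). Without A1 in DMSO, Psmb9 and Tap1 in cells labelled shSirt1 stood at -0.79 ± 0.21 and -1.04 ± 0.23. None of the 3 genes passed in the fit of group means, and 3 dimmer probe sets of Tap1 had differences between -0.23 and 0.03 in shLUC cells.

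The hairpin comparison was lopsided among these genes. In DMSO, 0 of 46 passed in limma and 5 had an unadjusted p under 0.05, all lower in cells labelled shSirt1 (10.9%, against 3.4% of all genes) and 0 higher (against 2.01%). Over all genes 0% passed. Single arrays moved that count: it was 8 lower and 1 higher without A1 in DMSO, 3 and 3 without A5 in DMSO, and 2 and 0 without D11 in DMSO. Positive differences were 14 of 46 (30.4%, against 46.9%). Macrophage markers were lower too. Their summed intensity was 2263 and 2791 in shLUC cells in DMSO and 607.4 and 1410 in cells labelled shSirt1 in DMSO. At an unadjusted p under 0.05, 6 of 10 were lower and 0 higher (against 3.4% and 2.01% of all genes). The arrays of cells labelled shSirt1 lay below both shLUC arrays for 19 genes (41.3%, against 22.2% of all genes) and above them for 2 (4.35%, against 17%). In EPZ4777, at 21 days against 6 days, 1 gene was lower, Ifi209 at -2.97 ± 0.36 (adjusted p = 0.0399), and 0 were higher, where 0.242% of all genes were lower, 0.066% higher and 0.308% passed in all. The groups did not overlap for 31 lower genes (67.4%, against 18.2% of all genes) and for 1 higher gene, Oasl1 (2.17%, against 21%). Of the 46 genes 23 had an unadjusted p under 0.05, all lower (50%, against 6.44% of all genes) and 0 higher (against 6.9%). Without A4 in EPZ4777 there were 14 and without A5 in EPZ4777 16, again all lower. Only 4 of 46 differences were positive (8.7%, against 51.6% of all genes).

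**Figure D4:**
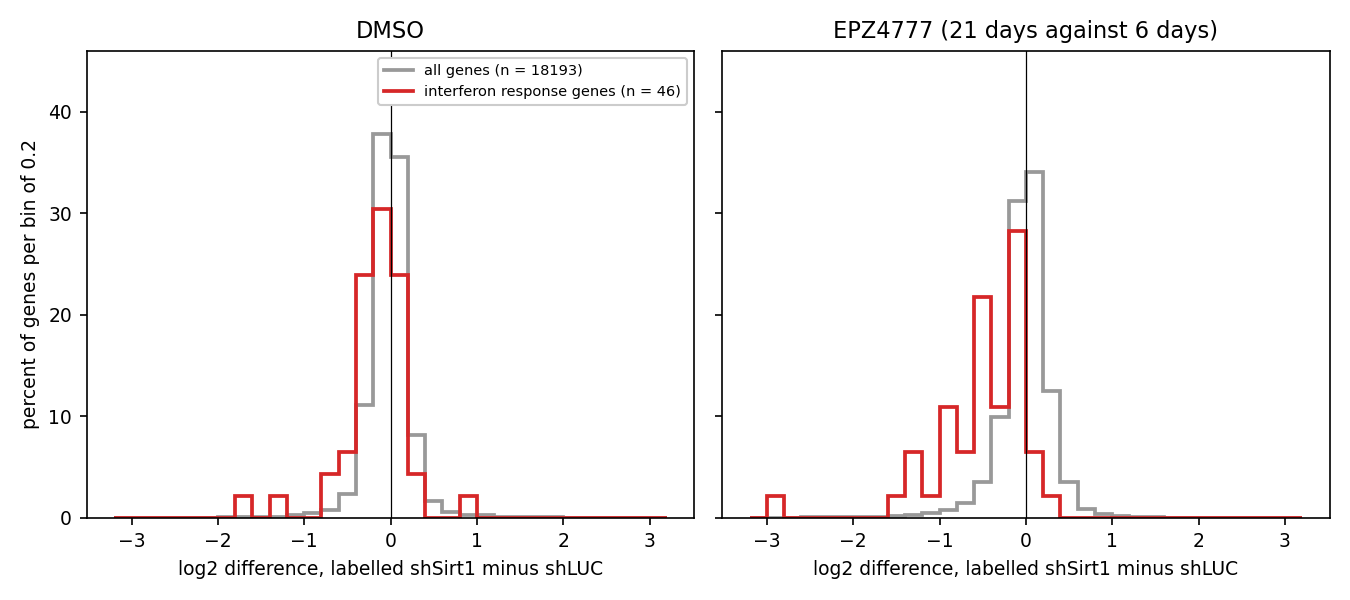
Share of genes (percent per bin of 0.2) by log2 difference of cells labelled shSirt1 minus shLUC, in DMSO on the left and in EPZ4777 on the right, for all 18193 genes (grey) and the 46 interferon response genes (red). The red outline lies left of the grey in EPZ4777, where its median is -0.41 against 0.00711 for all genes.

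The median difference of the 46 genes between the hairpins was -0.17 in DMSO (all genes -0.0131) and -0.41 in EPZ4777 (all genes 0.00711). By role, the medians in EPZ4777 were negative in each of the 9 groups, from -0.155 for the receptors to -0.85 for the other induced genes. Rtp4 stood at -1.24 ± 0.18 (adjusted p = 0.06), Parp14 at -0.98 ± 0.15 (adjusted p = 0.0613), Usp18 at -0.64 ± 0.12 (adjusted p = 0.0938) and Trim30a at -0.85 ± 0.17 (adjusted p = 0.0982). Time in drug differs with the hairpin here and cannot be told apart from it. Macrophage markers moved the same way. Their summed intensity was 3946 and 5395 in shLUC cells in EPZ4777 and 686.8 and 991.3 in cells labelled shSirt1 in EPZ4777. At an adjusted p under 0.05, 3 of 10 were lower and 0 higher (against 0.242% and 0.066% of all genes). All 10 were lower at an unadjusted p under 0.05 (against 6.44%). In shLUC cells 5 of 10 of these markers rose with EPZ4777 at an adjusted p under 0.05 (against 1.62% of all genes). All 10 markers were measured, and their part in the results for either agent was not tested. The plasmacytoid dendritic cell list holds the members Bst2 and Irf7. In EPZ4777 it summed to 1176 and 1045 in shLUC cells and 950.5 and 894.4 in cells labelled shSirt1.

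The A1 array in DMSO differed from the other 3 DMSO arrays by more than 1 on the log2 scale for 2 of the 46 genes (4.35%, against 2.43% of all genes). Ifi27l2a was 3.42 above their mean and Ifitm6 differed by -2.28. The next largest gaps were -0.88 for Ifi209, 0.58 for Rsad2, -0.48 for Ifitm3, 0.45 for Gbp2, 0.42 for B2m, 0.35 for Rtp4, -0.33 for Parp14 and 0.31 for Ifngr1. A1 in DMSO was the highest array for 7 genes (15.2%, against 13.7% of all genes) and the single lowest for 6 (13%, against 17.1%). Left without it, the median over the 46 genes for EPZ4777 in cells labelled shSirt1 moved from -0.16 to -0.06, and that between hairpins in DMSO from -0.174 to -0.167. The EPZ4777 difference in these cells changed sign for 3 of 46 genes, Gbp2, Ifi27l2a and Trim30a.

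The calls also depended on single arrays, among the 46 genes as over the whole table. Without A4 or D11 in DMSO, or without D11 in EPZ4777, the genes called in shLUC cells no longer passed. Almost no gene of the whole table passed there either. Each of the other arrays, when left out, also removed calls among these genes, and Rtp4 kept its call more often than the others. Without A1 or A5 in DMSO fewer genes of the whole table passed too. With any 1 array left out, the differences in shLUC cells stayed positive. They ran from 0.95 to 1.31 for Rtp4, 0.73 to 1.34 for Ddx58, 0.66 to 1.16 for Oas2 and 0.77 to 0.90 for B2m. The fall of Ifi209 in cells labelled shSirt1 did not pass without A4 or D11 in DMSO (adjusted p = 0.119 each), A1 in DMSO or A5 in EPZ4777 (adjusted p = 0.117). Its difference between the hairpins in EPZ4777 did not pass without A4 or D11 in DMSO (adjusted p = 0.0918 each), A4 or D11 in EPZ4777 (adjusted p = 0.134 and 0.156) or A5 in EPZ4777 (adjusted p = 0.106).

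Other genes of the interferon pathway were read from a further list of 82, of which 68 were measured. In shLUC cells 5 rose with EPZ4777 and 2 fell (7.35% and 2.94%, against 1.62% and 2.36% of all genes), and in cells labelled shSirt1 1 rose and 3 fell (1.47% and 4.41%, against 0.214% and 0.181%). Limma called 0 of 68 in the other 3 comparisons. At an unadjusted p under 0.05, 2 were higher and 9 lower in the difference of the effects (2.94% and 13.2%, against 3.49% and 3.22%). Between hairpins 2 were higher and 7 lower in DMSO (2.94% and 10.3%, against 2.01% and 3.4%), and 2 higher and 24 lower in EPZ4777 (2.94% and 35.3%, against 6.9% and 6.44%). The medians over the 68 genes were 0.18 and 0.02 with EPZ4777 in the 2 arms and -0.12 and -0.32 between hairpins in DMSO and in EPZ4777. Il15, a cytokine of NK and memory T cells, rose in both arms, by 1.85 ± 0.12 (adjusted p = 0.00511) and 1.16 ± 0.12 (adjusted p = 0.0385). Jak2, a receptor kinase, rose by 0.92 ± 0.18 in shLUC cells (adjusted p = 0.0439), Ikbke, a kinase of the sensing pathway, by 0.77 ± 0.14 (adjusted p = 0.0411), Irgm2, a GTPase, by 0.87 ± 0.15 (adjusted p = 0.0371), and Znfx1, an RNA sensor, by 0.96 ± 0.15 (adjusted p = 0.0326).

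The genes on that list that fell were Irf8, Psmb10, Tap2 and Gbp7. Irf8, which directs monocyte and dendritic cell development, read 9.16 and 9.40, then 7.57 and 7.02, then 8.90 and 8.53, then 5.95 and 4.98. It fell in both arms, with log2 differences of -1.99 ± 0.33 (adjusted p = 0.0355) and -3.25 ± 0.33 (adjusted p = 0.0385). Psmb10, the remaining catalytic subunit of the immunoproteasome, fell by 1.07 ± 0.11 in shLUC cells (adjusted p = 0.0244) and stood at -0.73 ± 0.11 in cells labelled shSirt1 (adjusted p = 0.0636). Tap2, the partner chain of Tap1, fell in cells labelled shSirt1 by 1.30 ± 0.18 (adjusted p = 0.045), as did Gbp7, a relative of Gbp3, by 1.20 ± 0.17 (adjusted p = 0.0497). In shLUC cells Tap2 stood at -0.72 ± 0.18 (adjusted p = 0.0706) and Gbp7 at -0.76 ± 0.17 (adjusted p = 0.0567).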

How the data were processed

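The authors deposited 1 intensity per probe set and array, computed (per the submitters' processing notes) by RMA. That method subtracts background, aligns the arrays and summarises probes, and it compresses differences of dim genes. Its version, and whether the 8 arrays were run through it together, are among the things not given in the sources used here. The values reach 24500.3 and so are on a linear scale. They were turned to log2 with no pseudocount, filter or detection call, so a dim gene may be at background (lower quartiles of 3.75 to 3.84).

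Of 45101 probe sets, 64 controls were left out, 34945 had 1 symbol in the platform annotation, 932 several, and 9160 were not listed there. The brightest probe set per gene gave 18193 genes. Limma 3.58.1 in R 4.3.3 fitted 4 group means over all 8 arrays (4 residual degrees of freedom), two-sided, with Benjamini-Hochberg adjustment over all genes. Such groups cannot give an exact p below 0.333, and the number of arrays limits the precision. The test was run on simulated data first.

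Members and lists were chosen with earlier results of these data known. Values on every array are given for members that passed, those with the largest and smallest range in each role group, and the 10 with the largest gap between A1 and the other DMSO arrays. Promoters are RefSeq's (GRCm38.p6). Alternative fits averaged a gene's probe sets, kept genes above the median, normalized by quantiles, used a variance trend, used the compared arrays alone, added the code as a block, or left out each array.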

Additional observations from a re-analysis of the deposited data

Results flagged for a closer look

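For 7 genes (15.2%, against 5.3% of all genes) the EPZ4777 difference was positive in both shLUC codes and negative in both codes of cells labelled shSirt1. This opposition was not tested as such, and the difference of the effects did not pass in limma for any of the 7 (adjusted p from 0.622 to 0.836). The effect in cells labelled shSirt1 minus that in shLUC cells was -0.9362 for Ifitm1, -0.8563 for Irf9, -0.7811 for Parp14, -0.5117 for Stat2, -0.3843 for Oasl2, -0.3604 for Trim30a and -0.3095 for Dhx58. The differences within codes were small in places, -0.0038 in A5 for Oasl2 and -0.0236 in A1 for Stat2, and without A1 in DMSO the difference of Trim30a in cells labelled shSirt1 was 0.04. Irf9 and Stat2 encode partners in the ISRE-binding complex. Time in EPZ4777 differed between the arms.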

How the results depend on the processing

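The 4 calls in shLUC cells were called again with the mean of probe sets, quantile normalization and a variance trend, the last adding Ifi209 as lower. Among genes above the median the calls were Adar, B2m and Ddx58 (higher) and Psmb9 and Tap1 (lower), and with only the arrays compared B2m, Cxcl10 and Rtp4 (higher) and Ifi209 and Psmb9 (lower). The code as a fixed block gave 9 (6 higher and 3 lower, with Cxcl10, Ifitm6, Ifi209, Psmb8 and Tap1 added), and left-out arrays 0 to 4. For the 1 call in cells labelled shSirt1, the mean of probe sets, the filter for genes above the median (which removes Ifi209) and only the arrays compared gave 0, the replicate block gave 5 (Cxcl10 and Ifitm6 higher, Ifi209, Psmb8 and Tap1 lower, with adjusted p = 0.0123 for Psmb8 and 0.0192 for Tap1, against 0.0273 and 0.0327 in shLUC cells), and left-out arrays gave 0 to 2. For the 1 call between hairpins in EPZ4777, the same 3 settings gave 0, quantile normalization 2 (Ifi209 and Irf9), the code as a random block 3 (Parp14 added), and left-out arrays 0 to 2. The difference of the effects and the hairpins in DMSO kept 0 calls under each alternative. Over all genes, the 724 calls in shLUC cells became 1424 among genes above the median, 402 with only the arrays compared, 1316 with the block, and 0 to 1031 with an array left out. The 72 in cells labelled shSirt1 became 0, with 2470 at an unadjusted p under 0.05, with only the arrays compared, 404 with the block, and 0 to 205. The difference of the effects went from 0 to 3 with the block and 0 to 89. The hairpins in DMSO ranged from 0 to 155. The 56 between hairpins in EPZ4777 became 14 with only the arrays compared and 0 to 73. The cause of these changes was not tested. No gene that passed changed sign under an alternative; Gbp2, Ifi27l2a and Trim30a, which did not pass, did in cells labelled shSirt1 without A1 in DMSO. Searched on 1 strand, the ISRE core was in 27.0% of the windows of members. The deviations of A4 and of A1 from their group means correlated between agents at 0.293 and 0.378, against 0.0402 and 0.401 between unrelated codes. With 2 codes per arm and 2 residual degrees of freedom left by the fixed block, the data give the pairing no support of its own. Quantile normalization moved the median of all genes by less than 0.1 in each comparison.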
